A study of Caenorhabditis elegans with 12 samples.

Results

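The genes described here encode parts of the machinery that makes and splices messenger RNA: general transcription factors of RNA polymerase II, Mediator, the Integrator complex and proteins of the spliceosome. They were chosen by gene symbol, under a rule written with earlier results of these data known, as all named probes whose symbol starts with one of 17 prefixes (gtf, taf, ints, mdt and rpb for transcription, and sftb, sfta, snrp, snr, prp, prpf, lsm, rsp, wbp, cwc, snu and luc7l for splicing). The rule found 35 genes among the 8187 named genes of the array, 19 for transcription and 16 for splicing, each with 1 probe. All 35 had a value on all 12 arrays, so no member was lost to a filter. Only 9 of the 17 prefixes had a member. Of the 10 gtf, 11 ints, 3 sftb and 3 wbp genes of the current annotation (WBcel235), 10, 8, 3 and 3 had named probes. Of its 20 mdt, 13 prp, 5 snrp and 3 snu genes only 1, 4, 3 and 2 had named probes. None of its 17 taf, 11 rpb, 8 rsp, 7 snr and 7 lsm genes has a probe under its name, and these were not analysed here.

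All worms were Caenorhabditis elegans hermaphrodites of the wild-type strain N2, cultured at 20 °C from the egg and then moved to 25 °C for 48 h, either on plain NGM plates (control, 6 samples) or on NGM plates with 10 mM lithium chloride (LiCl, 6 samples). A sample held 50 picked worms, whose RNA was amplified and labelled with Cy5, and it went on an array of its own together with Cy3-labelled RNA pooled from mixed-stage N2 worms. Values are deposited log ratios, read as sample over reference from the dyes in the labels. No source states that direction outright, so it is only likely. If the ratio runs the other way, all rises below become falls, and genes given as above the reference lie below it. The log base and any scale factor are unknown, so differences are given in log ratio units and no folds are given.

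RNA polymerase II starts transcription with the help of general factors. TFIIA steadies the promoter complex, TFIIF escorts the polymerase, and TFIIE recruits TFIIH, whose helicase opens the DNA and whose core also serves in nucleotide excision repair. Mediator relays signals from transcription factors to the polymerase, and Integrator cleaves nascent RNA of snRNA and many other genes. Introns are then removed by the spliceosome, in which U1 marks the start of the intron, U2 with the SF3a and SF3b proteins marks the branch site, and the U4/U6.U5 tri-snRNP joins before activation.

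After LiCl, 4 of the 35 genes passed the test, 2 in each direction. The SF3b subunit gene sftb-6 and the TFIIH subunit gene gtf-2H3 rose, by 0.73 and 0.69 log ratio units. The TFIIH subunit gene gtf-2H2C and the splicing gene wbp-11 fell, by 0.75 and 0.64 units. These are 11.4% of the members, against 8% of all 22370 probes (limma, Benjamini-Hochberg adjusted p under 0.05, n = 6 and 6 arrays). By direction, 4.5% of all probes rose and 3.5% fell. The share of members called was thus near the background. On average 17 genes were higher and 18 lower in LiCl, and the median difference was -0.01, against 0.02 over all probes. On the 8 arrays left without the 4 of lowest weight (control replicate 5 and LiCl replicates 1, 2 and 6), none of the 35 passed, while 3.8% of all probes did. There 8 of the 35 had an unadjusted limma p under 0.05, beside 19.3% of all probes, and 31 of 35 kept their sign. The differences of the 4 called genes were 0.62 in sftb-6, 0.49 in gtf-2H3, -0.58 in gtf-2H2C and -0.54 in wbp-11 on these arrays.

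**Figure D1:**
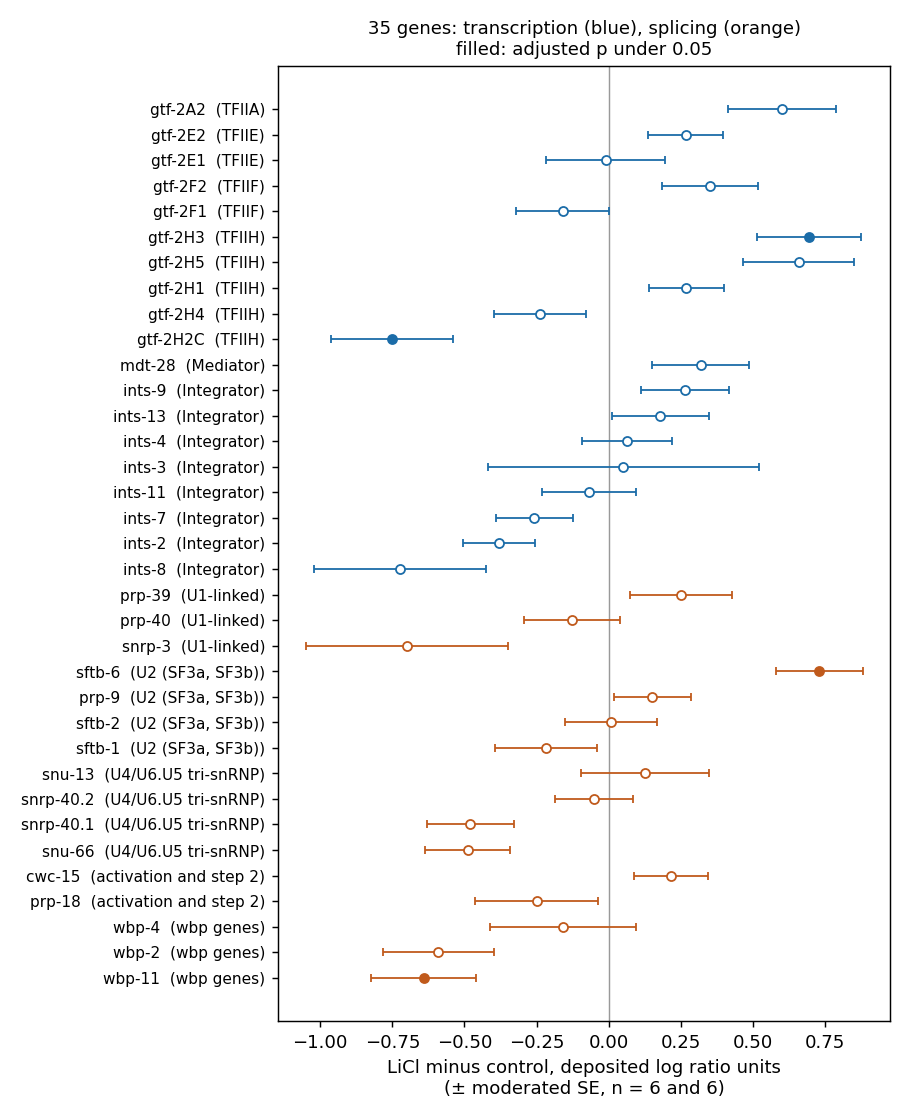
Difference between LiCl and control arrays for each of the 35 genes, in deposited log ratio units on the horizontal axis, with the moderated SE as the bar (n = 6 and 6). Transcription genes are blue and splicing genes orange, and filled points passed an adjusted p of 0.05. The 4 filled points are gtf-2H3 (0.69), gtf-2H2C (-0.75), sftb-6 (0.73) and wbp-11 (-0.64), and the TFIIH genes lie on both sides of 0.

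Transcription and splicing genes were set side by side. Of the 19 transcription genes 1 rose and 1 fell, and of the 16 splicing genes 1 rose and 1 fell. The median difference was 0.06 for transcription, with 11 genes above 0 and 8 below, and -0.14 for splicing, with 6 above and 10 below. Without the 3 wbp genes the splicing median was -0.05. Measured array by array, the median log ratio of the transcription genes lay between 0.55 and 0.80 in controls and between 0.56 and 0.87 in LiCl. That of the splicing genes lay between 0.30 and 0.46 in controls and between 0.17 and 0.52 in LiCl. The ranges of both groups overlapped for either class. No test was made over the members of a class.

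**Figure D2:**
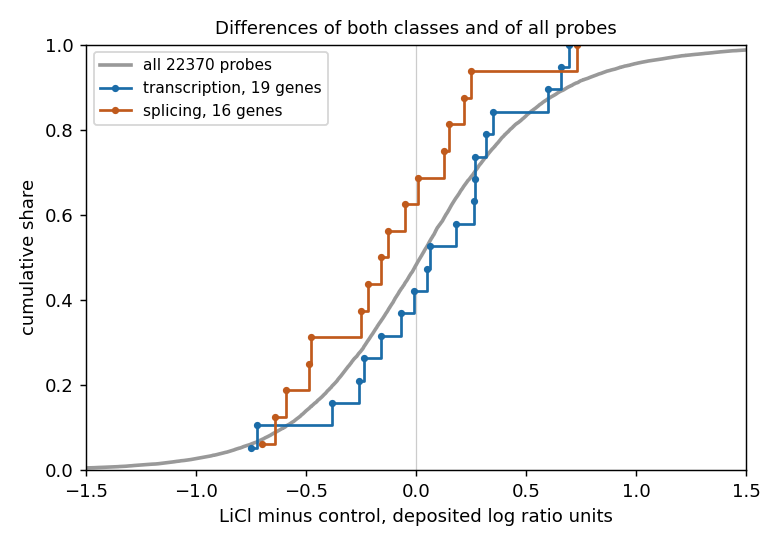
Cumulative share of genes by their difference between LiCl and control, in deposited log ratio units, for the 19 transcription genes (blue), the 16 splicing genes (orange) and all 22370 probes (grey). The splicing curve lies left of the grey curve over most of its length (median -0.14 against 0.02), and the transcription curve runs close to it (median 0.06). Differences beyond 1.5 units in either direction are outside the plotted range.

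Members were measured with less scatter than most probes. Their median moderated SE was 0.17 units, against 0.27 over all probes. Their differences were also smaller, with a median size of 0.26 against 0.32, and none of the 35 exceeded 1 unit, a size that 7.19% of all probes exceeded. LiCl arrays scattered more than controls in 29 of the 35 genes, with a median SD of 0.28 against 0.21. Over all probes the SD was higher in LiCl for 62.5%.

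Among the general transcription factors the 5 TFIIH subunit genes held both calls. gtf-2H3 encodes the p34 subunit of the TFIIH core. In controls its log ratio had a lowest value of 0.59, a median of 0.85 and a highest value of 1.11, and in LiCl these were 1.18, 1.42 and 2.06. The groups did not overlap, and LiCl replicate 1 was the highest. Control arrays averaged 0.85 ± 0.21 (SD, n = 6) and LiCl arrays 1.55 ± 0.34 (SD, n = 6), so that it rose by 0.69 ± 0.18 (SE, limma adjusted p = 0.0344). Leaving out 1 array at a time kept the call without control replicates 2 and 3 and LiCl replicates 4, 5 and 6, and lost it without each of the other 7 (limma adjusted p between 0.0286 and 0.0754 over the 12 settings).

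gtf-2H2C encodes the counterpart of the p44 subunit, which in human TFIIH pairs with p34 and stimulates the XPD helicase. Its controls ran from 1.01 through a median of 1.15 to 1.75, and its LiCl arrays from -0.30 through 0.58 to 0.87. The groups did not overlap, and LiCl replicate 2 was far below the other LiCl arrays. Control arrays averaged 1.26 ± 0.27 (SD, n = 6) and LiCl arrays 0.50 ± 0.43 (SD, n = 6), with a difference of -0.75 ± 0.21 (SE, limma adjusted p = 0.0486). Without LiCl replicate 2 the difference was -0.59 and did not pass (adjusted p = 0.0595 with limma). The call was kept only without LiCl replicate 1 or 3, and the limma adjusted p over the 12 settings lay between 0.0472 and 0.0998. The 2 genes lie on the same chromosome, III, with 8 other protein-coding genes between them in the WBcel235 annotation.

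The remaining 3 TFIIH genes did not pass. gtf-2H5, which encodes the small p8 subunit, ran from -0.20 through 0.38 to 0.73 in controls and from 0.72 through 0.90 to 1.62 in LiCl. The groups overlapped by a narrow margin, with 5 of 6 LiCl arrays above all controls. Its difference of 0.66 ± 0.19 (SE) missed the threshold in limma (adjusted p = 0.0558), and passed the exact permutation test adjusted over all fully measured probes (adjusted p = 0.0477). gtf-2H1, for the p62 subunit, differed by 0.27 ± 0.13 (SE, limma adjusted p = 0.24). Its groups did not overlap, with controls between 0.44 and 0.68 and LiCl arrays from 0.73 upward. gtf-2H4, for the p52 subunit, which anchors the XPB helicase, differed by -0.24 ± 0.16 (SE). By the exact test 4 of the 5 TFIIH genes were called, gtf-2H2C lower and gtf-2H1, gtf-2H3 and gtf-2H5 higher, beside 9.07% of the 21839 fully measured probes. Groups that do not overlap always take the smallest p of this test, whatever the size of the difference. For gtf-2H1, gtf-2H2C and gtf-2H3 the exact call thus only restates that the groups did not overlap.

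The other general factors gave no limma call. gtf-2A2, the small subunit of TFIIA, had control log ratios from -1.14 through -0.92 to -0.55, and LiCl values from -0.71 through -0.36 to 0.39. All but 1 LiCl array, replicate 6, lay above every control. The difference was 0.60 ± 0.19 (SE, limma adjusted p = 0.0727), and the exact permutation test gave an adjusted p of 0.0477. The TFIIE genes gtf-2E1 and gtf-2E2 differed by -0.01 and 0.27, and the TFIIF genes gtf-2F1 and gtf-2F2 by -0.16 and 0.35. None of these 4 had an unadjusted limma p under 0.05 or an exact call. mdt-28, the only annotated mdt gene with a probe under its name, differed by 0.32 ± 0.17 (SE, limma adjusted p = 0.288).

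**Figure D3:**
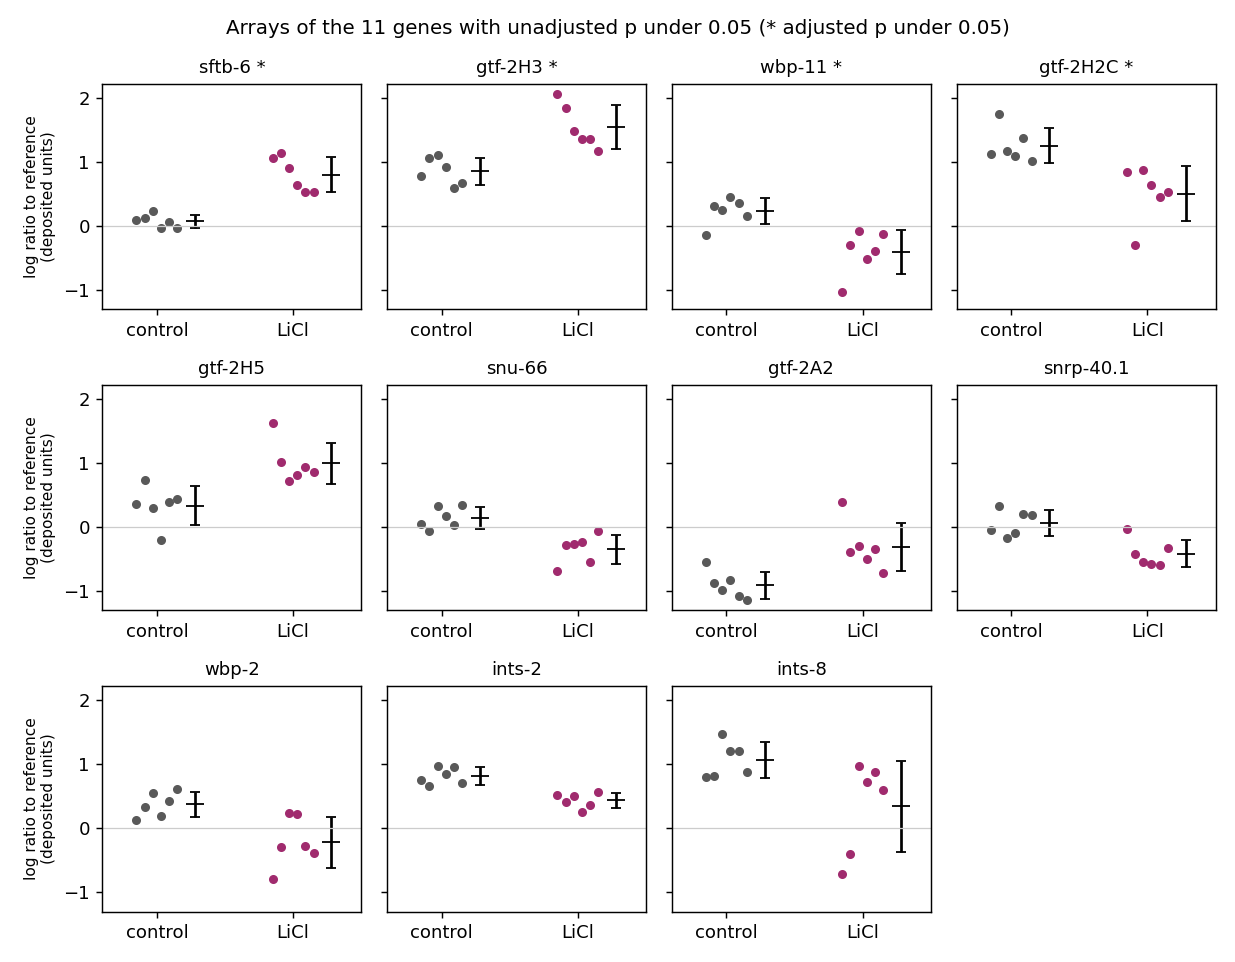
Log ratio to the reference in deposited units (vertical axis) on each array for the 11 genes with an unadjusted p under 0.05. Points are arrays in order of replicate number, and black bars give the mean ± SD (n = 6). The 4 genes with an asterisk passed the adjusted threshold. The groups do not overlap for sftb-6, gtf-2H3, gtf-2H2C, snu-66 and ints-2, and in ints-8 the LiCl replicates 1 and 2 lie below the other 4.

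None of the 8 Integrator genes passed with limma. Of these, 2 had an unadjusted limma p under 0.05, beside 22.8% of all probes. Only 1, ints-2, passed the exact permutation test (adjusted p = 0.0321), beside 9.07% of the fully measured probes. ints-2 encodes a subunit of the structural core. Its controls lay at 0.66, 0.80 and 0.98 (lowest, median and highest) and its LiCl arrays at 0.25, 0.46 and 0.57. The groups did not overlap, and the scatter was among the smallest of the members, 0.13 (SD) in controls and 0.12 in LiCl. The difference was -0.38 ± 0.13 (SE, limma adjusted p = 0.085). ints-8, whose human counterpart binds the phosphatase PP2A, had a larger mean difference with much wider scatter. Controls lay at 0.80, 1.04 and 1.48 and LiCl arrays at -0.71, 0.66 and 0.97, so that the groups overlapped. The difference was -0.72 ± 0.30 (SE, limma adjusted p = 0.167), and on the 8 arrays of higher weight, which lack LiCl replicates 1 and 2, it was -0.18.

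The 3 genes of the cleavage module of Integrator did not pass. ints-11, the endonuclease, differed by -0.07 ± 0.16 (SE), its inactive partner ints-9 by 0.26 ± 0.15 (SE) and the scaffold ints-4 by 0.06 ± 0.16 (SE). Of the rest, ints-7 differed by -0.26, ints-13 by 0.18 and ints-3 by 0.05. ints-3 was the most scattered member, with an SD of 0.88 in controls and 0.91 in LiCl, and its SE of 0.47 was the largest among the 35 genes. In controls all 8 Integrator genes had a mean log ratio above 0, between 0.21 and 1.06, which reads as below the reference if the ratio is turned.

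On the splicing side the U2 proteins SF3a and SF3b were covered by 4 genes. sftb-6 encodes the SF3b subunit known in humans as p14, which sits near the branch site adenosine. Its controls lay at -0.04, 0.08 and 0.23 and its LiCl arrays at 0.52, 0.77 and 1.14. The groups were well apart, with all LiCl arrays above the highest control. Control arrays averaged 0.07 ± 0.10 (SD, n = 6) and LiCl arrays 0.80 ± 0.27 (SD, n = 6), and the rise was 0.73 ± 0.15 (SE, limma adjusted p = 0.0111). It was the only member called in all 12 settings that left out 1 array (limma adjusted p between 0.0115 and 0.0283), though on the 8 arrays of higher weight it was 0.62 with an adjusted p of 0.0803.

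The larger proteins of the same particle gave no call. sftb-1, the counterpart of SF3B1, the large scaffold that holds the branch site helix, differed by -0.22 ± 0.18 (SE). sftb-2 differed by 0.01 ± 0.16 (SE), and prp-9, the counterpart of the SF3a subunit SF3A3, by 0.15 ± 0.13 (SE). In sftb-1 controls ran from -0.40 to 0.40 and LiCl arrays from -0.71 to 0.16. Unadjusted limma p-values of these 3 genes were all above 0.05.

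wbp-11 encodes the counterpart of a human nuclear protein that binds the WW domain of PQBP1 and takes part in splicing. Its controls lay at -0.14, 0.29 and 0.46 and its LiCl arrays at -1.03, -0.34 and -0.08. The groups overlapped, with 4 of 6 LiCl arrays below all controls, and control replicate 1 was the lowest control. LiCl replicate 1 was the lowest array. Control arrays averaged 0.23 ± 0.21 (SD, n = 6) and LiCl arrays -0.41 ± 0.34 (SD, n = 6), with a difference of -0.64 ± 0.18 (SE, limma adjusted p = 0.0486). The call was kept without control replicate 1 or LiCl replicate 3 or 6 and lost without any of the other 9 arrays (limma adjusted p between 0.0434 and 0.102), and the exact permutation test did not pass (adjusted p = 0.061).

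Of the other wbp genes, wbp-2 differed by -0.59 ± 0.19 (SE, limma adjusted p = 0.0818) and wbp-4 by -0.16 ± 0.25 (SE). wbp-2 came in by its prefix: its human counterpart is known as a transcriptional coactivator and not as a spliceosome protein. Its controls lay at 0.13, 0.38 and 0.61 and its LiCl arrays at -0.80, -0.29 and 0.25, with 4 of 6 LiCl arrays below all controls. The human counterpart of wbp-4 joins the spliceosome before activation.

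The 4 tri-snRNP genes gave no limma call, and 2 had an unadjusted limma p under 0.05, beside 22.8% of all probes. By the exact test 1 of the 4 passed, beside 9.07% of the fully measured probes. snu-66, the counterpart of human SART1, which holds the tri-snRNP together, lay at -0.06, 0.11 and 0.35 in controls and at -0.68, -0.27 and -0.07 in LiCl. The groups did not overlap, though the highest LiCl array and the lowest control array almost met. The difference was -0.49 ± 0.15 (SE, limma adjusted p = 0.0641, exact permutation test adjusted p = 0.0321). snu-66 and the Integrator gene ints-9 are direct neighbours on chromosome V in the annotation, and their differences were of opposite sign, -0.49 and 0.26.

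The genes snrp-40.1 and snrp-40.2 are both named after the WD repeat protein of the U5 particle. snrp-40.1 lay at -0.18, 0.07 and 0.32 in controls and at -0.59, -0.48 and -0.03 in LiCl, where 5 of 6 arrays were below all controls and the highest was replicate 1. Its difference was -0.48 ± 0.15 (SE, limma adjusted p = 0.0739), and without LiCl replicate 1 it passed, at -0.56 (limma adjusted p = 0.0369). snrp-40.2 differed by -0.05 ± 0.14 (SE), and its control mean of 0.98 ± 0.11 (SD, n = 6) and LiCl mean of 0.93 ± 0.20 (SD, n = 6) differed by less than the spread between arrays. The difference between both responses was not tested. snu-13, the RNA-binding protein shared by U4 and box C/D snoRNPs, differed by 0.13 ± 0.22 (SE).

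The U1-linked genes and those of later steps showed no call. snrp-3, the counterpart of the U1-C protein, had the largest negative difference among splicing genes, -0.70 ± 0.35 (SE, limma adjusted p = 0.26), but LiCl arrays ran from -1.24 to 1.30 and covered almost the whole control range of 0.38 to 1.33. The genes prp-39 and prp-40, whose yeast namesakes belong to U1, differed by 0.25 and -0.13. cwc-15, of the complex that forms on activation, differed by 0.22 ± 0.13 (SE), and prp-18, which in yeast acts in the latter catalytic step, by -0.25 ± 0.21 (SE).

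Across the 35 genes, 11 (31.4%) had an unadjusted limma p under 0.05, 4 higher and 7 lower, against 22.8% of all probes (12.1% higher and 10.7% lower). The groups did not overlap for 6 genes (17.1%), namely sftb-6, gtf-2H3, gtf-2H1, gtf-2H2C, snu-66 and ints-2, against 6.61% of all probes. By the exact permutation test with adjustment over the fully measured probes 8 members passed, 5 higher and 3 lower, beside 9.07% of those probes. The 6 genes without overlap are among them by construction, since such groups take the smallest p of that test. For 7 of the 11 genes the LiCl array farthest from the control mean was replicate 1, the array of lowest weight, and its part in these results was not tested beyond leaving it out. Without it 3 members and 1527 probes in all were called, against 4 and 1789 with all 12 arrays. The 3 members were gtf-2H2C, sftb-6 and snrp-40.1.

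Relative to the mixed-stage reference, 33 of the 35 genes had a control mean above 0, or 94.3% against 52.4% of all probes. With the ratio turned these 33 genes would lie below the reference. The control means ran from -0.91 in gtf-2A2 to 1.27 in gtf-2E1, with a median of 0.61 for transcription and 0.36 for splicing. The exceptions were gtf-2A2 and snu-13 (-0.14). These are ratios to the reference of each probe, so levels of different genes cannot be ranked by them.

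Genes of the same processes outside the name rule were taken from lists set out with earlier results of these data known. Of 6 other transcription genes 1 fell and none rose, beside 3.5% of all probes that fell and 4.5% that rose. This was snpc-1.4, named after the complex that starts snRNA transcription, with control arrays at 1.52 ± 0.20 (SD, n = 6) and LiCl arrays at 0.93 ± 0.25 (SD, n = 6) and a difference of -0.60 ± 0.16 (SE, limma adjusted p = 0.0376). Its control and LiCl arrays did not overlap, with the lowest control at 1.35 and the highest LiCl array at 1.32. Of the 12 settings that left out 1 array, the call was kept only without LiCl replicate 2 (limma adjusted p between 0.0212 and 0.0803), and it was lost on the 8 arrays of higher weight (limma adjusted p = 0.126). The median of the 6 genes was -0.08.

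Of 24 other splicing and mRNA processing genes 4 fell and none rose, with a median of -0.15, 8 genes above 0 and 16 below. These 4 calls are 16.7% of the list, beside the 3.5% of all probes that fell. rbm-3.1, an RNA-binding motif gene, fell most, with control arrays at 1.33 ± 0.34 (SD, n = 6) and LiCl arrays at 0.10 ± 0.40 (SD, n = 6) and a difference of -1.23 ± 0.22 (SE, limma adjusted p = 0.00471). Its namesake rbm-3.2 differed by 0.10. eif-4A3, of the exon junction complex, differed by -0.72 ± 0.19 (SE, limma adjusted p = 0.0368), fubl-4 by -0.58 ± 0.13 (SE, limma adjusted p = 0.0179) and hrpk-2, named after hnRNP K, by -0.56 ± 0.13 (SE, limma adjusted p = 0.0199). In all 4 genes the LiCl arrays were entirely below the controls, and these were the only genes of the 24 without overlap. Over all probes the groups did not overlap for 6.61%. The 4 genes were picked as called on the same arrays, so this separation is not separate evidence. When 1 array was left out, rbm-3.1, fubl-4 and hrpk-2 passed in all 12 settings, and eif-4A3 passed only without control replicate 4 or LiCl replicate 1 or 6 (limma adjusted p between 0.0286 and 0.077). The mean log ratio of the 24 genes lay between 0.58 and 0.77 on control arrays and between 0.35 and 0.48 on LiCl arrays. It is a mean, in which large single differences such as that of rbm-3.1 weigh more than in the medians given for the member classes. On the 8 arrays of higher weight none of the 24 passed with limma, and 5 had an unadjusted p under 0.05 there, beside 19.3% of all probes.

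**Figure D4:**
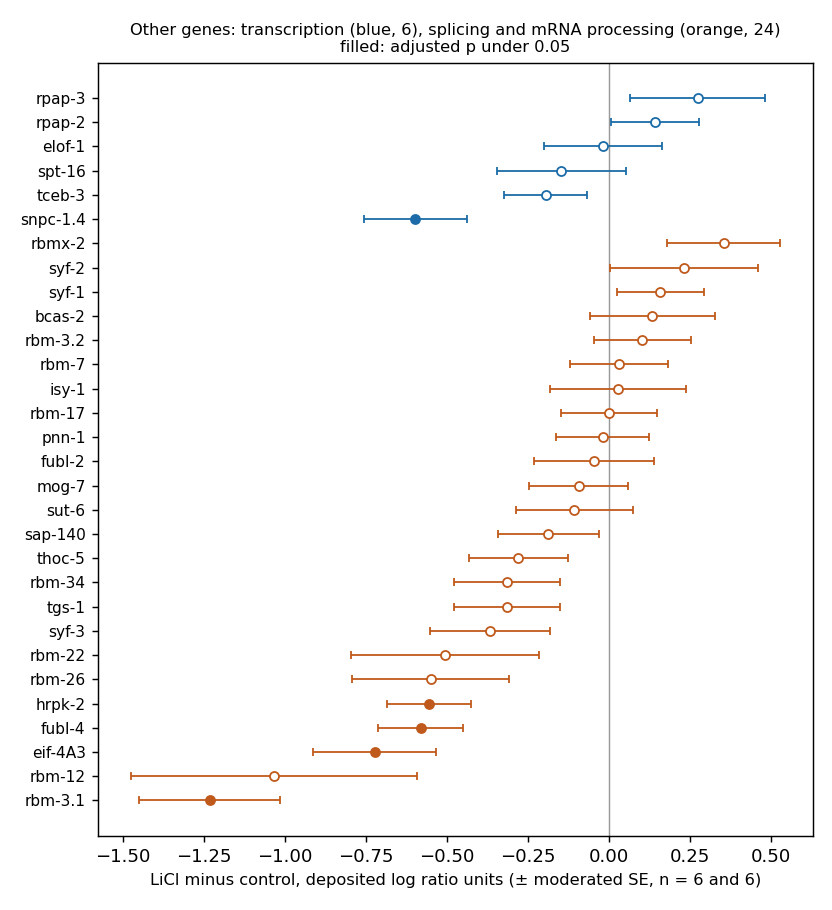
Difference between LiCl and control (horizontal axis, deposited log ratio units, bars moderated SE, n = 6 and 6) for 6 other transcription genes (blue) and 24 other splicing and mRNA processing genes (orange). The 5 filled points, snpc-1.4 (-0.60), hrpk-2 (-0.56), fubl-4 (-0.58), eif-4A3 (-0.72) and rbm-3.1 (-1.23), passed an adjusted p of 0.05, and all lie below 0.

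Whole worms hold germline, and in bulk RNA fewer cells of a type and less RNA per cell cannot be told apart. Germline and oocyte genes were taken by name prefix with earlier results of these data known, so their calls are not independent of those results. Of the 15 genes matched 3 fell (syp-6, mip-1 and enri-2) and none rose. Over all probes 3.5% fell and 4.5% rose. The median was -0.30, with 5 genes above 0 and 10 below, from 0.66 in cpg-20 to -0.96 in enri-2. The genes cpg-18, cpg-19, cpg-20, cpg-22, cpg-23 and cpg-24 came in by prefix, and their germline expression was not checked. Their control means lay between -2.37 and -0.23, and those of the other genes listed between 0.28 and 1.97. Apart from memi-1 (0.06), the genes with a difference above 0 were cpg genes, while cpg-19 and cpg-24 lay below 0 (-0.30 and -0.19). The mean log ratio of the 15 genes lay between 0.31 and 0.55 on control arrays and between 0.00065 and 0.55 on LiCl arrays. The groups thus overlapped. Of 10 sperm genes 1 rose and 1 fell, and no yolk gene carried a named probe. On the 8 arrays of higher weight none of these 15 germline and 10 sperm genes passed with limma, beside 3.8% of all probes. There 4 germline and 3 sperm genes had an unadjusted limma p under 0.05, beside 19.3% of all probes. The part of germline content in the changes of the splicing genes was not tested.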

How the data were processed

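Per the labels, each array compared Cy5-labelled amplified RNA of 1 sample with Cy3-labelled mixed-stage reference RNA. The authors deposited 1 log ratio per probe and array, read here as log2; log base, scale and centring are not stated, and for software and normalization no source used here gives an account. Array medians lay between 0.018 and 0.044, and 16 to 150 of 22370 probes lacked a value on an array. Spot intensities were not used here, so the number of arrays limits the precision. Names came from the platform annotation (8757 probes) and were updated by gene identifier to WBcel235 (8724 matched, all 35 members among them); 13613 probes are unnamed here.

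Values as deposited were fitted over all probes in R 4.3.3 with the lmFit and eBayes functions of limma 3.58.1 (a two-sided test without covariates, values needed on 4 arrays per group), with Benjamini-Hochberg adjustment over all probes and a threshold of 0.05. SE are the moderated ones. The exact permutation test used the mean difference over all 924 assignments of the 12 arrays, adjusted over 21839 fully measured probes; its smallest p is 0.00216. The code was tested on simulated arrays. Array weights came from limma. Plots come from Python 3.11.15 and matplotlib 3.10.9. The members and lists were chosen with earlier results of these data known. Named with array values were all members with an unadjusted p under 0.05, then called genes of the other lists. Alternatives were other normalizations, scaling, variance models, weights, probe filters, a replicate block, thresholds and leaving out arrays. Each member had 1 probe, so averaging probes of a gene changed nothing.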

Additional observations from a re-analysis of the deposited data

Results flagged for a closer look

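An array stood far from the other 5 of its group in 8 of 70 group comparisons of the 35 genes, while chance alone would flag about 1 in 20 (3.5 here). LiCl replicate 1 was that array in 4 genes. It was high in gtf-2H5 (1.623, others 0.7208 to 1.018) and prp-18 (1.064, others -0.0016 to 0.3581). It was low in ints-13 (0.155, others 0.6329 to 0.882) and prp-39 (0.2935, others 0.8225 to 1.093). LiCl replicate 2 was low in gtf-2H2C (-0.2992, others 0.4468 to 0.8715). Control replicate 5 was low in gtf-2E1 (0.5419, others 1.29 to 1.586) and snu-13 (-0.9674, others -0.2138 to 0.189), and control replicate 2 in ints-4 (-0.2419, others 0.247 to 0.3584). LiCl replicates 1 and 2 had the lowest array weights, 0.524 and 0.612, and control replicate 5 had 0.698. Of these genes only gtf-2H2C was called.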

How the results depend on the processing

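The count of called members (4, 2 higher and 2 lower, 2 for transcription and 2 for splicing) was small and moved with most choices. None of the 16 differences followed through the alternatives (11 members and 5 other genes) changed sign in any that gave a value. That was nearly fixed in advance, since these genes were picked for a low p or a call on the same arrays. Several alternatives, such as the replicate block and named probes only, also leave the difference itself unchanged. Of all 35 members, 31 kept their sign without the 4 arrays of lowest weight. Centring arrays on their median gave 2 members, with 0 lower, 1 for transcription and 1 for splicing. Testing named probes only gave the same counts, with 667 of 8757 probes called, against 1789 of 22370 when all were tested. Of the same named probes 710 were called when all probes were tested. Quantile normalization and eBayes with trend and robust each gave 1 lower member and 1 for splicing. Leaving out the 4 arrays of lowest weight gave 0 members in either direction and either class and 847 probes, with class medians of 0.18 for transcription and -0.032 for splicing. In the upper part of probes by mean log ratio, with fewer probes tested, 1134 probes, 1 lower member and 1 for splicing were called, and the splicing median was -0.0514. Without the wbp genes 1 splicing gene was called and the median was -0.0514. An adjusted p under 0.10 gave 10 members, 4 higher and 6 lower, 5 in each class, and 2836 probes. The exact permutation test gave 8 members, 5 higher and 6 for transcription, beside 9.07% of the fully measured probes. Beyond fewer probes or arrays, the cause of these moves was not tested. Leaving out 1 array gave 1 to 3 members, 1 to 2 higher and 0 to 2 lower, 0 to 1 for transcription and 1 to 2 for splicing, and 1181 to 1600 probes. Medians then ran from -0.07 to 0.04 over all members, 0.069 to 0.19 for transcription and -0.20 to -0.07 for splicing.

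Same-numbered samples deviated together above a correlation of 0.1 in 1 of 6 pairs, so the numbers were not treated as pairs. With the replicate block 1 member was called (sftb-6, higher), 0 lower, 0 for transcription and 1 for splicing. Of the 5 other genes called, rbm-3.1 passed with the block, and snpc-1.4 (adjusted p = 0.0624), fubl-4 (0.0571), hrpk-2 (0.0625) and eif-4A3 (0.0653) did not.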

Other observations

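Gene length, which the name rule did not use, ran from 558 to 26172 bases in the annotation over the 35 genes. Among the 19 transcription genes longer genes had lower differences, with a Spearman's rho of -0.55 across genes, while rho was -0.06 among the 16 splicing genes and 0.0033 across 8164 named genes with a length. The points share the same 12 arrays, are few and were looked at after the differences were known, so this is a description without a test. The short genes gtf-2H5 (622 bases), gtf-2A2 (1132) and gtf-2H3 (1184) had differences of 0.66, 0.60 and 0.69, and the long gene ints-8 (15016 bases) had -0.72. Others did not follow this order: gtf-2H2C (2029 bases) had -0.75, and the long genes ints-3 (26172) and ints-4 (11646) had 0.05 and 0.06.

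The Integrator gene ints-13 and the TFIIH gene gtf-2H1 are direct neighbours on chromosome IV in the annotation. Their differences were 0.18 and 0.27.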
